A study of Mus musculus with 9 samples.

Results

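DEAD and DEAH box proteins are RNA helicases, enzymes that use ATP to separate paired RNA strands or to strip proteins from RNA, and they are named after letters of a conserved motif. Most serve steps that every cell needs, such as splicing, ribosome assembly, RNA export, translation and decay. A few belong to germ cells, among them Ddx4 and Ddx25. Ddx4, the mouse homologue of the fly gene vasa, encodes a helicase of the germ granule and of the piRNA pathway that silences transposons. Ddx25 encodes a testicular helicase known for RNA export and translation in later male germ cells. The genes described here are the entries of the deposited table whose symbol is Ddx or Dhx followed by a number and at most 1 letter. Symbols found on more than 1 row were left out, as were 2 further symbols that the rule excludes. This gave 52 genes of the 23022 symbols with a single row, namely Ddx4, Ddx25 and 50 others. The rule sets only Ddx4 and Ddx25 apart as germ cell genes. The others are called general members here, whatever the tissues that express them. The general members include Ddx26b, a helicase by symbol alone, as described below, and the counts of helicases include it.

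The values come from RNA sequencing of spermatogonia, the mitotic germ cells of the testis, from mice carrying an Id4-EGFP reporter transgene on a C57BL/6 background at postnatal day 6. EGFP in these mice is driven by Id4, a gene expressed towards the stem cell end of this population, so all 3 groups consist of EGFP-positive sorted cells. The first group was the part of these cells with the strongest antibody staining for TSPAN8, a surface tetraspanin (TSPAN8-high, 3 libraries). The second was the part with the weakest positive staining (TSPAN8-low, 3 libraries), and the third was the whole EGFP-positive population (all ID4-EGFP+, 3 libraries). Cells of intermediate staining are in neither fraction. The labels call the 3 libraries of a group separate preparations without naming litters or pools, and p-values therefore cover variation among preparations. Levels are FPKM, fragments scaled by transcript length and by the mapped fragments of the library, so they can be compared between genes.

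Absolute depth is unknown. Relative to the library all ID4-EGFP+ replicate 1, depth was 1.01 to 1.05 in TSPAN8-high, 0.856 to 0.944 in TSPAN8-low and 0.914 to 1.03 in all ID4-EGFP+. The germ cell marker Dazl, which encodes an RNA-binding protein of germ cells, stood at 1311 to 1709 FPKM in TSPAN8-high, 1373 to 1849 in TSPAN8-low and 1148 to 1534 in all ID4-EGFP+, so the groups overlapped. Of the other germ cell markers, Gfra1, a receptor of stem cell growth factor signalling, rose in TSPAN8-high over TSPAN8-low (log2 fold change 1.35, limma adjusted p 0.00551). The transcription factor genes Zbtb16 and Sall4 had 0.59 (0.0567, and 0.0121 with the replicate block described below) and 0.26 (0.429). Of 13 Sertoli cell markers in the table only 4 passed the filter on low values (Clu, Cst9, Cst12 and Aard), and the summed level of the list was 81.1 to 194 FPKM in TSPAN8-high, 11.5 to 119 in TSPAN8-low and 15.4 to 91.2 in all ID4-EGFP+. The 6 leukocyte markers in the table summed to 13.3 to 22.7 FPKM in TSPAN8-high and 5.55 to 12.9 over the libraries of the other 2 groups, with the macrophage genes Csf1r and Emr1 listed at 0 in every library of those 2 groups. The leukocyte sums of TSPAN8-high lay above those of both other groups, and the Sertoli sums overlapped. Between the fractions 0 of the 4 tested Sertoli genes passed with limma (4 at an unadjusted p under 0.05), and all 4 passed with the block, higher in TSPAN8-high. Of all tested genes 22.0% were under that unadjusted limit and 11.8% passed higher with the block. Cd68, the 1 leukocyte marker tested, had 0.59 (adjusted p 0.192, and 0.0384 with the block), and the myoid markers Acta2 and Tagln had 0.65 (0.446) and 0.42 (0.202) and passed in neither fit. No marker of Leydig, endothelial or red blood cells reached the filter. The Leydig markers summed to 0.375 to 1.44 FPKM in TSPAN8-high, 0.325 to 6.35 in TSPAN8-low and 0.202 to 0.514 in all ID4-EGFP+. For red blood cells the sums were 0.156 to 3.62, 0.276 to 0.833 and 0.609 to 0.651 FPKM in the same order. Endothelial sums were 1.244 to 1.695, 0.855 to 1.236 and 1.064 to 1.318 FPKM. The part of other cell types in the helicase results was not tested.

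The helicases ranged over more than 3 orders of magnitude in level, and a germ cell gene was at the top. By the mean over the 9 libraries, 6 of the 52 genes reached 100 FPKM, 26 lay between 10 and 100, 16 between 1 and 10, and 4 below 1. The median of the 49 members that passed the filter, which asks for at least 1 FPKM in at least 3 libraries, was 20.9 FPKM, beside 10.3 FPKM for all 11130 tested genes. Ddx4 averaged 493 FPKM and was the highest helicase in each of the 9 libraries. It stood above 97.1% of all tested genes. Ddx25 averaged 151 FPKM, ranked 5 or 6 among the helicases in each library and stood above 90.5% of tested genes.

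**Figure D1:**
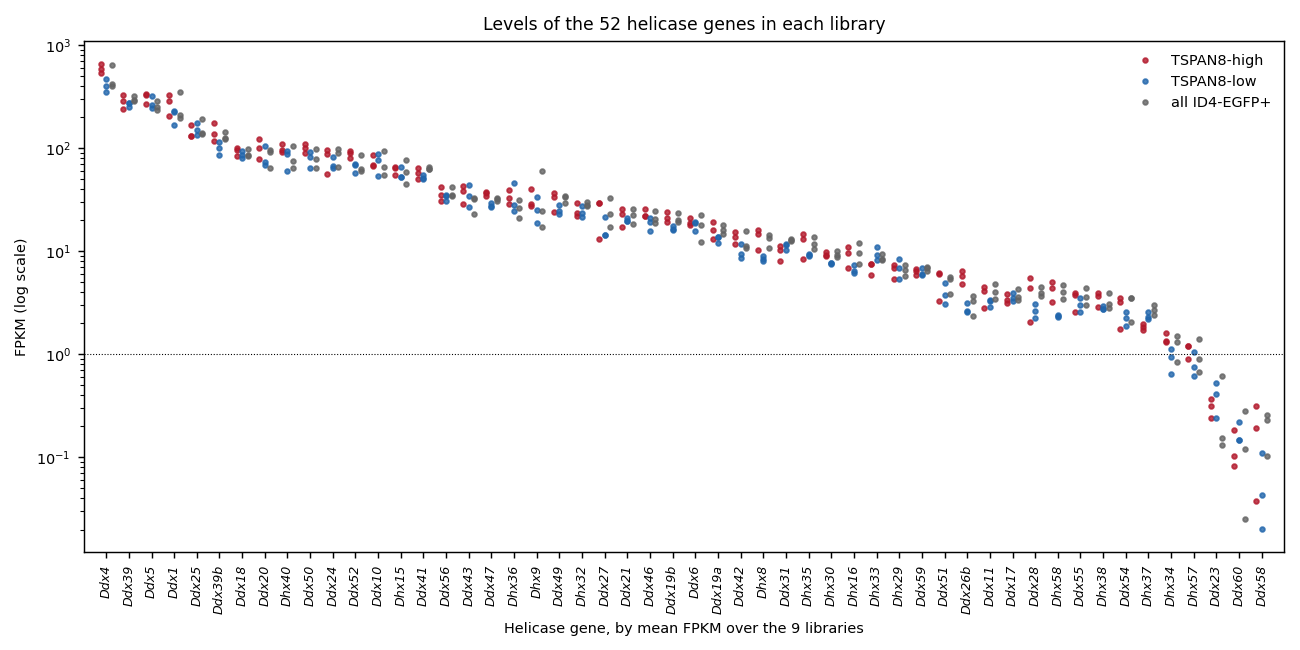
FPKM on a log scale of the 52 helicase genes, ordered by mean level, with 1 point per library for TSPAN8-high (red), TSPAN8-low (blue) and all ID4-EGFP+ (grey). Ddx4 is highest in every library, 6 genes average at least 100 FPKM, and the dotted line marks the 1 FPKM of the filter.

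Between these 2 germ cell genes lay general helicases. Ddx39, listed by RefSeq as Ddx39a and known from RNA export and splicing, averaged 283 FPKM. Ddx5, a cofactor of transcription, splicing and microRNA processing, averaged 280 FPKM. Ddx1, a subunit of the tRNA ligase complex, averaged 242 FPKM. Ddx39b, which acts in spliceosome assembly and RNA export, followed Ddx25 with 124 FPKM. The rest of the 10 highest members were Ddx18 (ribosome assembly), Ddx20 (a component of the SMN complex, which assembles splicing particles), Dhx40 and Ddx50 (a nucleolar protein), at 86.5 to 89.7 FPKM.

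Close relatives within the family were often at unlike levels. Ddx17, the near relative of Ddx5, averaged 3.59 FPKM, beside 280 FPKM for Ddx5. Ddx21, the nucleolar relative of Ddx50, averaged 21.3 FPKM, beside 86.5 FPKM for Ddx50. The RNA export helicases Ddx19a and Ddx19b were near each other, at 15.1 and 19.6 FPKM. Reads of such close copies can be split between them by the counting, so these levels, and those of Ddx39 and Ddx39b, are uncertain to that extent.

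At the low end were the helicases that sense viral RNA and a spliceosome gene. Ddx58, which encodes the sensor RIG-I, averaged 0.145 FPKM and lay between 0.0202 and 0.312 FPKM over the libraries. Ddx60, an antiviral cofactor, averaged 0.146 FPKM. Ddx23, which encodes a spliceosome helicase homologous to yeast Prp28, averaged only 0.335 FPKM, with 0.133 to 0.621 FPKM over the libraries. These 3 genes were under the minimum and were not tested. The tested splicing helicases averaged from 3.20 FPKM for Dhx38 to 283 FPKM for Ddx39. Whether annotation or read assignment has a part in the low Ddx23 value was not tested. Dhx57, at a mean of 0.965 FPKM, was tested because 4 single libraries exceeded 1 FPKM. A relative of Ddx58, Dhx58, which encodes LGP2, a regulator of that sensor, was well detected and is described below.

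Ddx4 had its higher values in the cells with strong TSPAN8 staining, but its call depended on how the replicates were modelled. Its level was 535.6, 652.0 and 585.2 FPKM in the TSPAN8-high libraries of replicates 1 to 3, against 463.1, 402.1 and 347.1 FPKM in TSPAN8-low, with 419.2, 639.7 and 394.7 FPKM in all ID4-EGFP+. All 3 TSPAN8-high values were above all 3 TSPAN8-low values, while the unfractionated libraries spanned both fractions, with replicate 2 the high one. The means were 591 ± 58.4 FPKM in TSPAN8-high, 404 ± 58.1 in TSPAN8-low and 485 ± 135 in all ID4-EGFP+ (SD, n = 3 each). On the log2(FPKM + 1) scale the log2 fold change, TSPAN8-high over TSPAN8-low, was 0.55 (SE 0.20, 95% interval 0.13 to 0.98). It did not pass with limma, at a Benjamini-Hochberg adjusted p of 0.124. Libraries with the same replicate number tended to deviate together, and with that number as a block in the limma fit Ddx4 passed, at an adjusted p of 0.0245. The blocked call was lost without any 1 of the TSPAN8-high libraries and without TSPAN8-low replicate 2 or 3, where the adjusted p reached 0.138. That call was also lost with libraries scaled to a common median (blocked limma adjusted p 0.0508). It held with normalized values that the authors deposited (0.0322). Here as for every gene below, bulk values cannot tell fewer cells of a type from less RNA per cell.

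Ddx25 gave no call in either fit. It had 167.3, 131.4 and 130.9 FPKM in TSPAN8-high, against 175.7, 134.9 and 150.6 FPKM in TSPAN8-low, with 189.4, 139.6 and 137.0 FPKM in all ID4-EGFP+. The 3 groups overlapped, and replicate 1 was the highest library in each. Within each replicate number TSPAN8-high was a little lower than TSPAN8-low. The log2 fold change was -0.10 (SE 0.18, 95% interval -0.48 to 0.28), with limma adjusted p of 0.771 and 0.509 with the block.

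**Figure D2:**
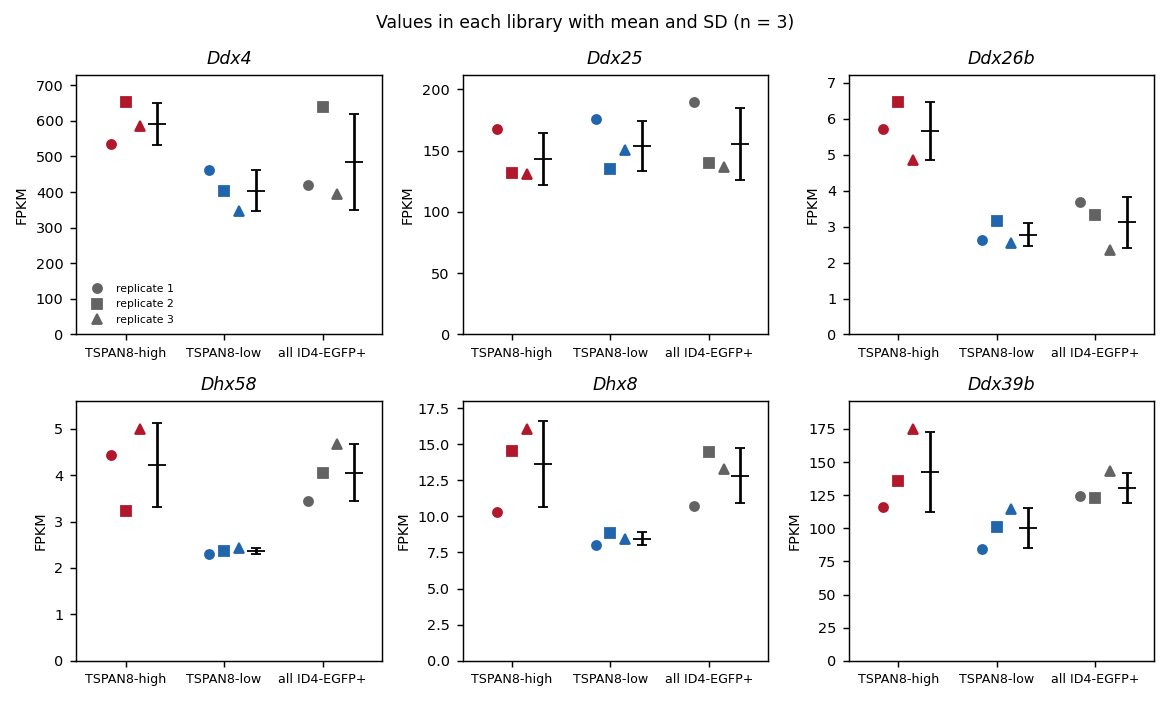
FPKM per library of Ddx4, Ddx25, Ddx26b, Dhx58, Dhx8 and Ddx39b in TSPAN8-high, TSPAN8-low and all ID4-EGFP+, with the replicate number as symbol and the mean and SD of the 3 libraries in black. The TSPAN8-high values of Ddx4, Ddx26b, Dhx58, Dhx8 and Ddx39b all lie above the TSPAN8-low values, while those of Ddx25 overlap.

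Set against the general helicases of the same library, Ddx4 exceeded the median of the tested general members by 4.82 ± 0.117 on the log2(FPKM + 1) scale in TSPAN8-high, 4.51 ± 0.225 in TSPAN8-low and 4.54 ± 0.203 in all ID4-EGFP+ (SD, n = 3 each). Ddx25 exceeded it by 2.78 ± 0.374 in TSPAN8-high, 3.12 ± 0.294 in TSPAN8-low and 2.92 ± 0.373 in all ID4-EGFP+. The fractions overlapped in both, with 4.69 to 4.90 in TSPAN8-high and 4.37 to 4.77 in TSPAN8-low for Ddx4. These differences are descriptions with no test. Ddx4 made up 19.5 to 20.6% of the summed FPKM of the 52 helicases in TSPAN8-high, 15.5 to 17.5% in TSPAN8-low and 15.9 to 20.2% in all ID4-EGFP+. The sum itself was 2972 ± 208 FPKM in TSPAN8-high, 2462 ± 211 in TSPAN8-low and 2731 ± 372 in all ID4-EGFP+.

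The ratio of the 2 germ cell genes, a measure chosen after their values were seen, is given as a description. Ddx4 was 3.20, 4.96 and 4.47 times Ddx25 in the TSPAN8-high libraries, against 2.64, 2.98 and 2.30 times in TSPAN8-low, with 2.21, 4.58 and 2.88 times in all ID4-EGFP+. The fractions did not overlap, and the unfractionated libraries overlapped with both.

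**Figure D3:**
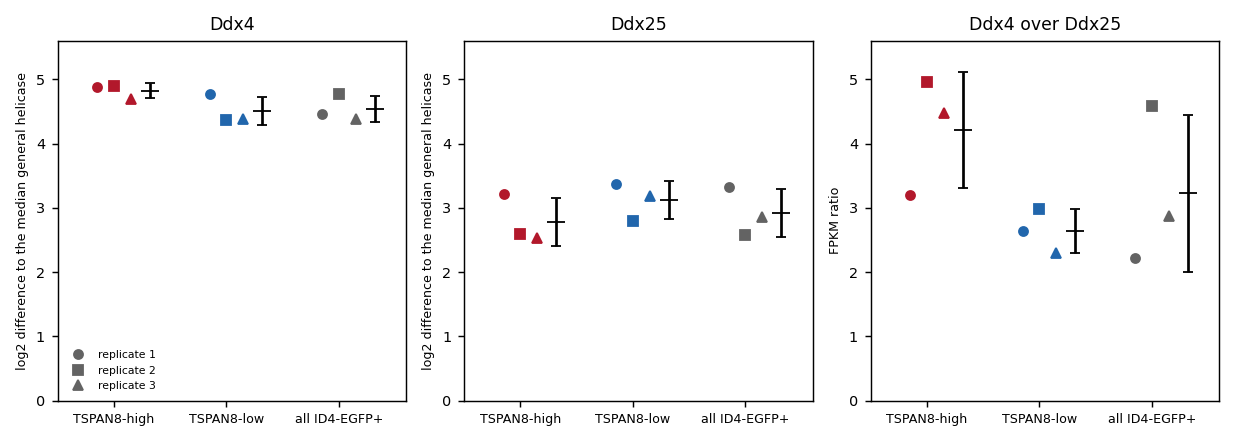
Ddx4 and Ddx25 relative to the median general helicase of the same library (log2 difference, left and middle) and the FPKM ratio of Ddx4 to Ddx25 (right) in TSPAN8-high, TSPAN8-low and all ID4-EGFP+, with mean and SD in black. The ratio is 3.20 to 4.96 in TSPAN8-high and 2.30 to 2.98 in TSPAN8-low.

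The promoters of these genes were compared from RefSeq sequences of the build GRCm38.p6, taken as the 250 bases before the annotated start on the gene's own strand. The deposited values rest on another build, mm9. The table held a promoter for 46 of the 52 helicases and 57 promoters in all. The sequences of Ddx4 and Ddx25 are shown because these are the germ cell members. Ddx1 is shown as the general member of highest level with a single promoter entry, and Ddx26b as the helicase-named gene with the smallest p between the fractions. Each is written 5′ to 3′ with CG dinucleotides, the sites of DNA methylation, in capitals. Ddx4 is at chr13:112652311-112652560 (minus strand), Ddx25 at chr9:35558471-35558720 (minus strand), Ddx1 at chr12:13249175-13249424 (minus strand) and Ddx26b at chrX:56454589-56454838 (plus strand, RefSeq name Ints6l).
Ddx4: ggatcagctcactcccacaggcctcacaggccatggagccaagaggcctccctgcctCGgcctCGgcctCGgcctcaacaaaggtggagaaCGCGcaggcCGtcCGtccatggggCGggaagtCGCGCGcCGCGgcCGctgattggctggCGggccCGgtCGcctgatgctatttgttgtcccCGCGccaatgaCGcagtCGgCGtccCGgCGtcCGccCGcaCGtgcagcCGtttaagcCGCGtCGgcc
Ddx25: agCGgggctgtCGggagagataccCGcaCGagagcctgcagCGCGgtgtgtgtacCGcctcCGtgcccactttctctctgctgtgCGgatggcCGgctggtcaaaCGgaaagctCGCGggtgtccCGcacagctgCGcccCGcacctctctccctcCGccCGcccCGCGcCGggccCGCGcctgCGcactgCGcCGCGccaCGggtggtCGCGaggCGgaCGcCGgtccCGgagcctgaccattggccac
Ddx1: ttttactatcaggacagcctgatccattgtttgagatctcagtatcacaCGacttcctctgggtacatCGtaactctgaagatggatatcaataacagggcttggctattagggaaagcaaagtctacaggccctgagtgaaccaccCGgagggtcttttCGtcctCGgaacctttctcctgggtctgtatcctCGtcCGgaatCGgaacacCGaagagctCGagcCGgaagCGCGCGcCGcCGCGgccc
Ddx26b: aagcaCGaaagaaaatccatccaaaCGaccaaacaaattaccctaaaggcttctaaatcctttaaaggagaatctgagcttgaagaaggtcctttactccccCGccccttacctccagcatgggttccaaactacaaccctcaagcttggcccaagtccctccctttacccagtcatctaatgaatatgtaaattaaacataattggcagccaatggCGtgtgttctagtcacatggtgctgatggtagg

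Both germ cell helicases had promoters dense in CG. The Ddx25 window held 34 CG dinucleotides, the most of the 57 helicase promoters, and the Ddx4 window held 31, more than 54 of the 57. The Ddx1 window held 17 and the Ddx26b window 4. The median was 18 CG over the helicase promoters and 6 over all 32851 promoters of the table, of which 2.97% had more than Ddx25 and 4.58% more than Ddx4. All promoters here means those of 27025 annotated genes, whether or not they were tested for expression. The promoters of the tested genes alone were not compared, so these values do not set helicases apart from other expressed genes. The letters GGGCGG, searched on both strands and known as a GC box, were in 56.1% of helicase promoters and 32.7% of all promoters, with 2 matches each in Ddx4 and Ddx25. The letters CANNTG, the E-box that basic helix-loop-helix factors can bind, were in 57.9% of helicase promoters and 66.2% of all promoters, with 1 match each in Ddx4 and Ddx25. The letters TATAAA, on either strand, were in 7.02% of helicase promoters and 12.4% of all, and in none of the 4 windows shown. The GC box letters contain a CG themselves, so they overlap with the CG count. These are matches of letters, not binding sites.

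Over the 49 tested members the fractions differed in a small number of genes, all of them higher in TSPAN8-high on the deposited scale. With limma at an adjusted p under 0.05, 2 of the 49 tested helicases passed, TSPAN8-high against TSPAN8-low, while 5.55% of all tested genes passed. Both, Ddx26b and Dhx58, were higher in TSPAN8-high (3.41% of all tested genes passed in that direction). Of these, Ddx26b is a helicase by symbol alone. With the replicate block 8 of 49 passed (16.3%), again all higher, beside 11.8% of all genes higher and 7.35% lower. The share called was therefore near that of the whole table. With FPKM scaled to a common median the blocked fit called 5 helicases higher and 1 lower, and with the authors' normalized values 7 higher and 1 lower; the lower one was Dhx33 in both. These scalings also turned the balance of all calls without the block, which was 379 higher and 239 lower as deposited, 254 and 360 with the common median, and 222 and 307 with the normalized values.

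**Figure D4:**
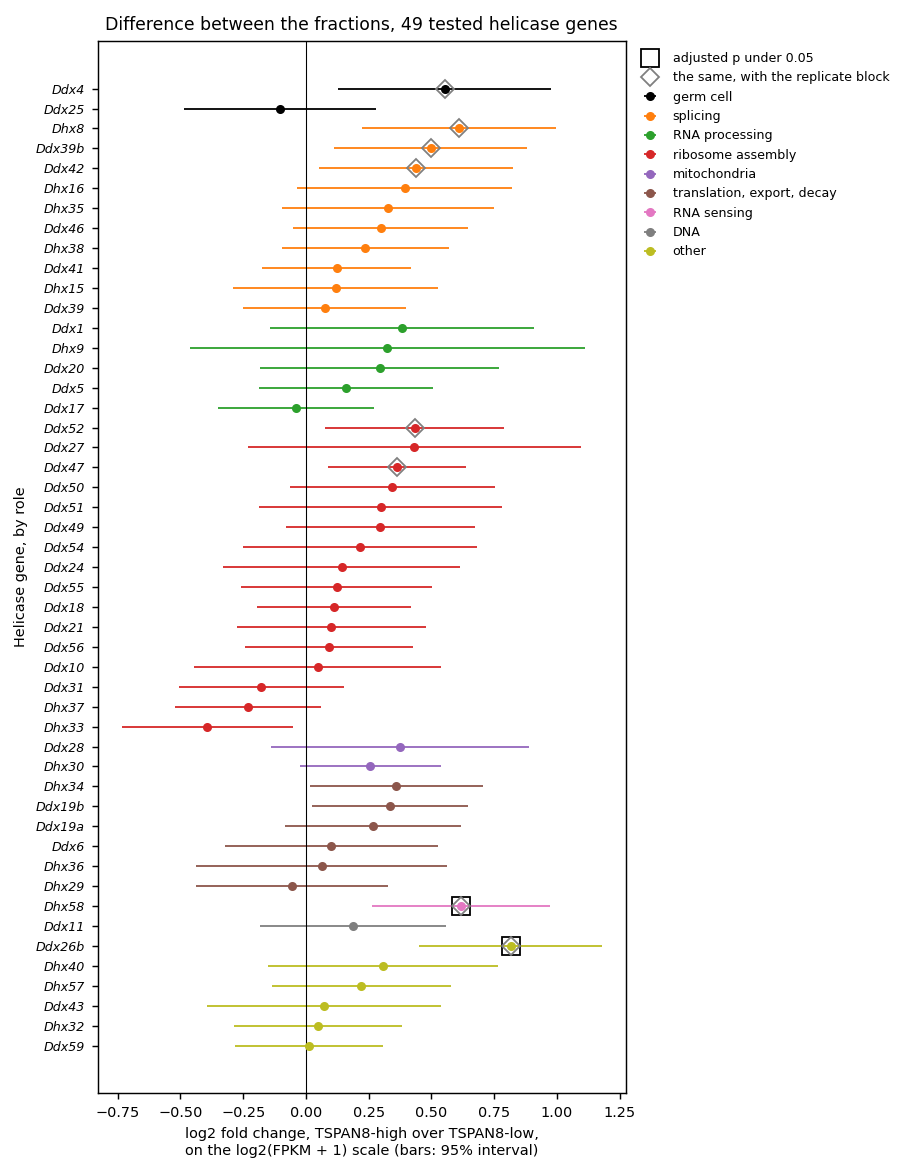
Log2 fold change (TSPAN8-high over TSPAN8-low, log2(FPKM + 1) scale) with 95% interval of the 49 tested helicases, grouped by role. Squares mark the 2 genes that passed without the block and diamonds the 8 that passed with it, all to the right of 0.

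The gene with the smallest p was Ddx26b. Despite its symbol it is not a true DEAD box helicase: RefSeq names it Ints6l, after its likeness to a subunit of the Integrator complex, which processes small nuclear RNAs. It had 5.72, 6.46 and 4.84 FPKM in TSPAN8-high, against 2.64, 3.16 and 2.55 FPKM in TSPAN8-low, with 3.70, 3.31 and 2.34 FPKM in all ID4-EGFP+. Every TSPAN8-high library was above every library of the other groups, which overlapped. Relative to TSPAN8-low the log2 fold change was 0.82 (SE 0.17, 95% interval 0.45 to 1.18, limma adjusted p 0.0181), and the ratio of mean FPKM was 2.04. With the block the adjusted p was 0.00195. The call held in 8 of the 9 fits without 1 library and ended when TSPAN8-high replicate 2 was left out (adjusted p 0.0842). It ended in each fit without a whole replicate number (0.0671 to 0.173), and held in all 9 blocked fits without 1 library. It was also lost when no filter on low values was applied (adjusted p 0.0599).

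Dhx58 also rose in TSPAN8-high, close to the threshold. It had 4.43, 3.23 and 5.002 FPKM in TSPAN8-high, against 2.30, 2.37 and 2.42 FPKM in TSPAN8-low, with 3.44, 4.05 and 4.67 FPKM in all ID4-EGFP+. The TSPAN8-low libraries stood apart, below every library of both other groups, and were close to one another. Its log2 fold change over TSPAN8-low was 0.62 (SE 0.16, 95% interval 0.26 to 0.97, limma adjusted p 0.0469). The call was lost in each of the 9 fits without 1 library, where the adjusted p was 0.0513 to 0.171. It was also lost with the common median scaling (0.0693) and with the authors' normalized values (0.0884). With the block the adjusted p was 0.0121, and that call ended when replicate 1 or 3 of TSPAN8-high, or replicate 3 of TSPAN8-low, was left out (up to 0.0674).

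Genes of the interferon response, in which Dhx58 acts, gave no call without the block. Of 16 such genes present, 9 were tested and 0 passed with limma, TSPAN8-high against TSPAN8-low, with 5 at an unadjusted p under 0.05. Of all tested genes 5.55% passed and 22.0% were under that unadjusted limit. The median log2 fold change of the 9 was 0.35, with 6 above 0. Those 5 had 0.44 for Oasl2, 0.39 for Irf9 and 0.36 for Trim25, but -0.44 for Oas1a and -0.33 for Usp18 (adjusted p of 0.154 to 0.207). With the block only Oas1a passed, lower in TSPAN8-high (adjusted p 0.0495), beside 7.35% of all tested genes lower and 11.8% higher. Typical induced genes such as Ifit1, Isg15 and Irf7 were below 1 FPKM in every library.

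Like most tested helicases, those of splicing, which remodel the spliceosome, leaned to TSPAN8-high. No splicing helicase passed in the unblocked fit, beside 5.55% of all tested genes. All 10 tested had a log2 fold change above 0, TSPAN8-high over TSPAN8-low, with a median of 0.31, and 9 of 10 with libraries scaled to a common median. Over all tested helicases the median was 0.24, with 43 of 49 above 0, and over all tested genes it was 0.05, with 56.5% above 0. With the common median scaling 36 of the 49 helicases were above 0. Other roles had like medians, so the lean was not particular to splicing. The median was 0.32 for the 2 mitochondrial helicases and 0.29 for the 5 cofactors, with 4 of these 5 above 0. It was lower for export, translation and decay (0.18) and for ribosome assembly (0.13). With the block 3 of the 10 splicing helicases passed, all higher, beside 11.8% of all tested genes higher and 7.35% lower. As deposited, 4 of the 10 had all 3 TSPAN8-high values above all 3 TSPAN8-low values, beside 15.8% of all tested genes. With the authors' normalized values 2 did (beside 11.7%), and with the common median 1 did (beside 11.0%).

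Dhx8, the homologue of yeast Prp22 that releases the finished messenger from the spliceosome, came first. It had 10.3, 14.5 and 16.1 FPKM in TSPAN8-high, against 8.04, 8.88 and 8.47 FPKM in TSPAN8-low, with 10.7, 14.5 and 13.3 FPKM in all ID4-EGFP+. As for Dhx58, the TSPAN8-low libraries were the low ones and the other groups overlapped. The log2 fold change was 0.61 (SE 0.18, limma adjusted p 0.0662, and 0.00783 with the block). The blocked call ended without TSPAN8-high replicate 3 (0.0534).

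Ddx39b had 116.3, 135.9 and 175.2 FPKM in TSPAN8-high, against 84.7, 100.6 and 114.6 FPKM in TSPAN8-low. The fractions did not overlap, and replicate 3 was the highest in both. The log2 fold change was 0.50 (SE 0.18, limma adjusted p 0.125, and 0.00995 with the block). The blocked call ended without TSPAN8-high replicate 2 or 3 (up to 0.0642). Its paralog Ddx39 averaged 282 ± 44.4 FPKM in the TSPAN8-high and 266 ± 13.6 FPKM in the TSPAN8-low libraries (SD, 3 per group), a log2 fold change of 0.07 (adjusted p 0.807) that was -0.02 with the common median scaling. Ddx42, which is bound to the SF3b part of the spliceosome and is named here because it passed with the block, had a log2 fold change of 0.44 (adjusted p 0.175, and 0.0212 with the block). The other spliceosome helicases, Dhx15, Dhx16, Dhx35, Dhx38, Ddx41 and Ddx46, had log2 fold changes of 0.12 to 0.39 and did not pass.

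The 16 tested helicases of ribosome assembly, which work mostly in the nucleolus, had estimates of both signs. Their median log2 fold change was 0.13, with 13 above 0 as deposited and 11 with the common median scaling. Ddx52, whose yeast homologue Rok1 acts on the small ribosomal subunit, had 90.4, 93.0 and 80.2 FPKM in TSPAN8-high, against 70.2, 67.8 and 56.8 FPKM in TSPAN8-low, without overlap. Its log2 fold change was 0.43 (limma adjusted p 0.147, and 0.0243 with the block). Ddx47, the homologue of yeast Rrp3, had 34.2, 37.3 and 36.7 FPKM in TSPAN8-high, against 27.4, 26.9 and 29.0 FPKM in TSPAN8-low. Its log2 fold change was 0.36 (adjusted p 0.117, and 0.0331 with the block). The blocked calls of Ddx4, Ddx47 and Ddx52 were lost with the common median scaling, at adjusted p of 0.0508, 0.0960 and 0.0644. That of Ddx47 was also lost with the authors' normalized values (0.0513). Like that of Ddx4, the blocked calls of Ddx42, Ddx47 and Ddx52 ended without any 1 of the TSPAN8-high libraries and without TSPAN8-low replicate 2 or 3, with adjusted p of up to 0.106, 0.189 and 0.115. For Ddx47 this also held without all ID4-EGFP+ replicate 3.

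Another 2 nucleolar helicases had the opposite direction. Dhx33, known for ribosomal RNA transcription, had 5.92, 7.43 and 7.54 FPKM in TSPAN8-high, against 11.1, 8.14 and 9.20 FPKM in TSPAN8-low, with 9.46, 8.21 and 8.36 FPKM in all ID4-EGFP+. All 3 TSPAN8-high libraries lay below all others. The log2 fold change over TSPAN8-low was -0.39 (SE 0.16, limma adjusted p 0.167, and 0.0770 with the block), and the blocked p was 0.0321 with the common median scaling. Dhx37, whose yeast homologue acts on the small ribosomal subunit, averaged 1.85 ± 0.131 FPKM in TSPAN8-high, against 2.35 ± 0.195 FPKM in TSPAN8-low (SD, n = 3 each). Its values did not overlap either, with a log2 fold change of -0.23 (adjusted p 0.334). The other 12 tested ribosome helicases did not pass in either fit, with log2 fold changes of -0.18 for Ddx31 to 0.43 for Ddx27.

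Counted by libraries, 12 helicases had all 3 TSPAN8-high values above all 3 TSPAN8-low values (24.5%, beside 15.8% of all tested genes), and 2 had them all below, Dhx33 and Dhx37 (beside 9.72%). With either other scaling the count above was 9, beside 11.7% of all genes with the normalized values and 11.0% with the common median. Within replicate numbers, 21 helicases were higher in TSPAN8-high in every pair (beside 31.4% of all genes), and 4 were lower in every pair (beside 22.0%), namely Ddx25, Ddx31, Dhx33 and Dhx37. At an unadjusted p under 0.05 there were 11 helicases, 22.4% of those tested, beside 22.0% of all genes.

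The other roles gave no call with or without the block. Beside this, 5.55% of all tested genes passed without the block, and 11.8% passed higher and 7.35% lower with it. Of 6 tested helicases of export, translation and decay, Dhx34, a factor of nonsense-mediated decay, had the highest log2 fold change at 0.36 (limma adjusted p 0.206). Dhx29, which helps the small ribosomal subunit scan structured messengers, had the lowest at -0.06 (adjusted p 0.883). The export helicases Ddx19b and Ddx19a had 0.33 and 0.27, and Ddx6, a helicase of RNA storage and decay, and Dhx36, which resolves G-quadruplexes, had 0.10 and 0.06. The cofactors Ddx1, Ddx5, Dhx9, Ddx17 and Ddx20 had log2 fold changes of -0.04 to 0.38. The mitochondrial ribosome helicases Ddx28 and Dhx30 had 0.38 and 0.26, and Ddx11, a DNA helicase of sister chromatid cohesion, had 0.19. The remaining members, Dhx40, Dhx57, Ddx43, Dhx32 and Ddx59, had log2 fold changes of 0.01 to 0.31.

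Against the unfractionated cells, no helicase of TSPAN8-high passed without the block. With limma 0 of 49 helicases passed, beside 0.144% of all tested genes, and 3 had an unadjusted p under 0.05, beside 9.74%. The median log2 fold change of the helicases was 0.03, beside -0.01 over all tested genes. Ddx26b, which is not a true DEAD box helicase, came nearest, with a log2 fold change of 0.70 (SE 0.17, adjusted p 0.0939). It was the 1 of the 49 members that passed with the block (adjusted p 0.0146, beside 3.09% of all genes). That call ended without any 1 of the TSPAN8-high libraries or all ID4-EGFP+ replicate 3 (up to 0.102). In the same blocked comparison 3 of the 4 tested Sertoli markers passed, higher in TSPAN8-high, and their part in the value of Ddx26b was not tested. Dhx37 had -0.37 (adjusted p 0.348), Ddx31 had -0.36 (0.450), Ddx52 had 0.35 (0.515) and Dhx33 had -0.29 (0.626). The values of Ddx26b and Ddx47 in TSPAN8-high were all above those in all ID4-EGFP+ (beside 6.80% of all genes), and those of Ddx31, Dhx33 and Dhx37 were all below (beside 8.35%). Ddx4 had a log2 fold change of 0.32 (adjusted p 0.677, and 0.282 with the block).

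TSPAN8-low against the unfractionated cells gave 0 helicase calls with limma, beside 0% of all tested genes, and 0 with the block, beside 0.0449%. At an unadjusted p under 0.05 there were 4 helicases (beside 8.17% of all genes), all lower in TSPAN8-low. These were Dhx58 with a log2 fold change of -0.58, Dhx8 with -0.54, Dhx16 with -0.47 and Ddx39b with -0.39 (adjusted p 0.600 each). Dhx8, Dhx16 and Ddx39b act in splicing. Ddx4 had -0.24 (adjusted p 0.732). The comparisons share groups, so TSPAN8-low enters both this one and the first.

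Without passing the test, many helicases lay lower in TSPAN8-low by library. All 3 TSPAN8-low values were below all 3 values of all ID4-EGFP+ in 15 of the 49 helicases (30.6%, beside 10.8% of all tested genes), and in 0 were they all above (beside 3.44%). With the authors' normalized values the count below was 10 (beside 5.23%), and with the common median 8 (beside 5.55%). Of the 10 splicing helicases 6 were so placed as deposited, 5 with the normalized values and 4 with the common median. The median log2 fold change was -0.18 for the helicases and -0.30 for the splicing helicases, beside -0.07 for all tested genes. It was -0.35 for the 2 mitochondrial helicases and -0.17 for ribosome assembly. For export, translation and decay it was -0.09, and for the cofactors -0.06. Relative depth was 0.856 to 0.944 in TSPAN8-low and 0.914 to 1.03 in all ID4-EGFP+, and its part in these values was not tested.

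Other helicases and the proteins that work with them were read against the same shares of all tested genes, TSPAN8-high against TSPAN8-low: 5.55% called without the block, 11.8% higher and 7.35% lower with it, and 22.0% at an unadjusted p under 0.05. Of 16 tested helicases with other names, 0 passed with limma, TSPAN8-high against TSPAN8-low, with 1 at an unadjusted p under 0.05, and 2 with the block. Those 2 were Skiv2l2, the helicase of the nuclear exosome, with a log2 fold change of 0.65 (adjusted p 0.196, and 0.0271 with the block), and Eif4a3, the exon junction helicase, with 0.44 (0.324, and 0.0419 with the block). Mov10l1, a piRNA pathway helicase, had 0.37 (limma adjusted p 0.269) and Aqr, a spliceosome helicase, had 0.30 (0.276).

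Among 28 tested partner proteins of the helicases 0 passed with limma, with 4 at an unadjusted p under 0.05 and 2 with the block. Both of these were higher in TSPAN8-high. Cnot1, the scaffold of the deadenylase that recruits Ddx6, had a log2 fold change of 0.42 (adjusted p 0.147, and 0.0392 with the block). Drosha, the microRNA processing enzyme that Ddx5 and Ddx17 assist, had 0.36 (adjusted p 0.147, and 0.0386 with the block). The median over the partners was 0.11.

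Of 16 tested genes of the germ granule and its RNA regulation, where the Ddx4 protein acts, 1 passed, TSPAN8-high against TSPAN8-low. This was Nanos2, an RNA-binding regulator of spermatogonial stem cells, with a log2 fold change of 1.20 (limma adjusted p 0.00604). With the block Tdrd5, a tudor protein of the granule, also passed with 0.39 (adjusted p 0.0305), and Pld6, the mitochondrial protein of piRNA biogenesis, passed in the other direction with -0.52 (adjusted p 0.0378). Over all tested genes the share that passed was 5.55% without the block, and 11.8% higher and 7.35% lower with it. The median over this list was 0.10, beside 0.55 for Ddx4 itself. Against all ID4-EGFP+, neither fraction gave a call in the lists of other helicases, partners, germ granule or interferon genes, with or without the block. Few genes of any kind passed there. For TSPAN8-high it was 0.144% of all tested genes, and 3.09% with the block. For TSPAN8-low it was 0%, and 0.0449% with the block.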

How the data were processed

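Transcripts were measured by RNA sequencing in 9 libraries of sorted mouse spermatogonia. The authors deposited FPKM values per gene. The submitters' processing notes name Cufflinks (no version), Bowtie2 2.2.3.0, TopHat2 2.0.12 and FastQC, and build mm9; no annotation is named. Normalized values that the authors also deposited were handled as signal, for alternatives alone. Library columns were matched to samples by population letters and number.

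The table has 23813 entries, 27 of them dates in place of symbols; 262 symbols on more than 1 row were left out. Genes with at least 1 FPKM in at least 3 libraries were tested (11130). limma 3.58.1 in R 4.3.3 (trend, two-sided) was fitted on log2(FPKM + 1) over the 9 libraries in 3 groups. This scale understates the change of low genes. P-values were Benjamini-Hochberg adjusted over all tested genes, with a threshold of 0.05. The fit without the block was tested on simulated data, with changes larger than any seen in the helicases. The blocked fit was not tested in this way. Pearson's r across genes between libraries of 1 group was 0.981 to 0.991. Relative depth was read from the smallest FPKM steps of low genes.

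The labels give the groups the same replicate numbers. Deviations from the group means had r of 0.264 to 0.481 across genes in the 9 same-numbered pairs of libraries, and -0.455 to 0.277 in the 18 other pairs. From this pattern in the data, not from the labels, the numbers were held to pair the samples, and the number entered an alternative fit as a block. The ranges of r overlap at their ends, so the pairing is not certain.

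The members and the gene lists were chosen with earlier results of these data known. Named helicases were Ddx4, Ddx25, those past the threshold, the 10 highest in level, the 5 of smallest p per comparison, and the extremes in fold change of 4 role lists; of other lists, up to 4 genes of smallest p. Others, such as Ddx42 and close paralogs, were named after their values were seen. Alternatives were the pseudocount, the filter, both scalings, the block, a fit on 2 groups and libraries left out. Promoters are RefSeq's, of GRCm38.p6. Python 3.11.15 and matplotlib 3.10.9 made tables and plots.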

Additional observations from a re-analysis of the deposited data

How the results depend on the processing

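The count of helicases past the threshold, TSPAN8-high against TSPAN8-low, was 2 as reported and 2 with a pseudocount of 0.1 FPKM. It was 0 with no filter on low values, 1 with the authors' normalized values, 1 with the common median and 1 in a fit on the 2 groups alone. Without 1 library it was 0 to 3, with 0 without TSPAN8-high replicate 2 and 3 without TSPAN8-high replicate 1, and without replicate 1, 2 or 3 of every group it was 1 (Dhx8, not Ddx26b), 0 and 0. With the replicate block, where the numbers are taken to pair the samples, it was 8, and it was 6 with the common median and 8 with the normalized values in the blocked fit. Without 1 library the blocked count was 1 to 15: 5, 3 and 1 without TSPAN8-high replicate 1, 2 and 3, 15, 4 and 3 without TSPAN8-low replicate 1, 2 and 3, and 8, 9 and 7 without all ID4-EGFP+ replicate 1, 2 and 3. For TSPAN8-high against all ID4-EGFP+ the count of 0 became 1 with the replicate block and also 1 in the blocked fits with the common median and the normalized values, and 0 to 2 in blocked fits without 1 library. TSPAN8-low against all ID4-EGFP+ gave 0 throughout. The sign changed for genes near 0, TSPAN8-high against TSPAN8-low: Ddx39 had a log2 fold change of -0.023 with the common median, with or without the block, and -0.034 to 0.19 in unblocked fits without libraries. Dhx29 had -0.23 to 0.19 in such fits, and 0.13 in blocked fits without TSPAN8-high or TSPAN8-low replicate 1. Without the filter Ddx4 exceeded the median general helicase by 5.08 in TSPAN8-high, 4.73 in TSPAN8-low and 4.78 in all ID4-EGFP+, since low genes then lower that median. Of the values of single named genes under alternatives, 635 kept their side of the threshold and their sign, 57 passed only under the alternative, 24 no longer passed and 9 changed sign. Blocked fits under other scalings or without a library were chosen after seeing the data. Depth is unknown in absolute terms, so no counting interval is given, and genes short of 1 FPKM in 3 libraries were not tested.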
